A study of Drosophila melanogaster with 3 samples.

Results

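The nuclear genes of the respiratory chain and the ATP synthase were examined for binding by rgr (regular), which the labels treat as a transcription factor of Drosophila melanogaster. Members were the protein-coding genes on 6 chromosome arms whose symbols begin with ND- (complex I), Sdh followed by A to D (complex II), UQCR- (complex III), COX and a digit (complex IV) or ATPsyn (ATP synthase). There were 87 of them among 13945 protein-coding genes: 40 of complex I, 7 of complex II, 9 of complex III, 16 of complex IV and 15 of the ATP synthase. Symbols decided membership, so subunits known by other names, such as blw and levy, are described apart. Chromatin was taken from whole wandering larvae of the third instar, with both sexes pooled, of a stable transgenic line in which rgr carries GFP at its carboxyl terminus, and was precipitated with an antibody against GFP. All 3 biological replicates belong to 1 group, and no untagged larvae were analysed here. The authors called peaks against a control alignment, once per replicate and once on the pooled replicates. Each of these relaxed lists holds 30000 entries, which by the files' titles include background, and the thresholded list (optimal list) holds 8551 peaks. A gene is called bound here when an optimal summit, the highest point of a peak, lies within 500 bp of one of its annotated transcript starts. The peak signal is the authors' value without a stated scale, so it is used as a level or a rank within 1 list. Sequencing depth is unknown, since no read counts come with the lists. In whole larvae, binding in fewer cells and weaker binding in all cells cannot be told apart.

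Complexes I to IV pass electrons from NADH and succinate to oxygen in the inner mitochondrial membrane, and complexes I, III and IV pump protons while they do so. The ATP synthase uses the returning protons to make ATP. A few core subunits are encoded in mitochondrial DNA and the rest, including all of complex II, by nuclear genes such as these, so the proteins of both genomes have to be made in step. Drosophila also carries many duplicated subunit genes whose names end in L (like another subunit), and such copies are often active mainly in the testis. Here the 24 members named in that way are called copies, and the other 63 main subunit genes.

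The DNA under 8 member peaks is shown first, from the RefSeq copy of the Release 6 assembly (dm6), so that the bound sequence can be read beside its values. They are high peaks of their complexes, but ND-MWFE in complex I and SdhA in complex II, which also had high peaks, are not printed. Each window spans 50 bp on either side of the summit and is printed 5′ to 3′ on the strand of the member. Capitals mark a word from the list described further on, with the plain TATA box left in lower case. The 4 windows of complex I lie at chrX:6679319-6679419 (minus strand, ND-ASHI), chr3R:22027572-22027672 (plus, ND-42), chrX:17632152-17632252 (plus, ND-24) and chr2L:6062828-6062928 (minus, ND-51). Those of the other complexes lie at chr3R:11210147-11210247 (minus, SdhC), chr3L:16584174-16584274 (plus, UQCR-C2), chrX:19744328-19744428 (minus, COX6B) and chr3R:14326920-14327020 (plus, ATPsynE).
ND-ASHI: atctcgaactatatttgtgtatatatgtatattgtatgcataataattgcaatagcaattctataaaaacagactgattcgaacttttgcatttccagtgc
ND-42: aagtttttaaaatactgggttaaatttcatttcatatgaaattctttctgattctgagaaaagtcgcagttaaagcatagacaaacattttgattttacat
ND-24: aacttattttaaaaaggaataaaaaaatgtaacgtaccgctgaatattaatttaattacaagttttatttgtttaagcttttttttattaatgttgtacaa
ND-51: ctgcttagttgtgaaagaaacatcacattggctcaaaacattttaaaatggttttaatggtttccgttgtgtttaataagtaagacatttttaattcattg
SdhC: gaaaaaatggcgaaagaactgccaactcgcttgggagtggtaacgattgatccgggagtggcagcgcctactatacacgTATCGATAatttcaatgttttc
UQCR-C2: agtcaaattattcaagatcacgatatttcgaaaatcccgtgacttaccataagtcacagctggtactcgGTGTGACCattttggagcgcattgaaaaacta
COX6B: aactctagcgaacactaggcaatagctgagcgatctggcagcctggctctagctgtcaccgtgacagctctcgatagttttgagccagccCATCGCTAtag
ATPsynE: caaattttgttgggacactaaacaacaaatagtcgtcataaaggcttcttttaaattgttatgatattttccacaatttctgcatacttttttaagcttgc
The 4 complex I windows are rich in A and T, at 71.3% for ND-ASHI, 74.3% for ND-42, 81.2% for ND-24 and 71.3% for ND-51. None of them holds a marked word. COX6B, at 46.5% A or T, lies at the other end of the range and holds an Ohler motif 7 word near its 3′ end.

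A second set is shown for the words it holds. Ohler motif 7 occurs at ND-13B, SdhD and ATPsynD, the DRE at COX7A, the M1BP word at COX7AL, and the nuclear respiratory gene element at ND-SGDH and ND-MNLL, the last of which also has an Ohler motif 7. The windows are chr3L:10694072-10694172 (minus, ND-13B), chr3R:23760558-23760658 (minus, SdhD), chr3R:19094949-19095049 (plus, ATPsynD), chr3R:8341011-8341111 (minus, COX7A), chr3R:8343501-8343601 (plus, COX7AL), chr3L:12138596-12138696 (minus, ND-SGDH) and chrX:7893809-7893909 (minus, ND-MNLL).
ND-13B: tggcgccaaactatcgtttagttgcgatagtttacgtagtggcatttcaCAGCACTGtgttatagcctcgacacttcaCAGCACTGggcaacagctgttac
SdhD: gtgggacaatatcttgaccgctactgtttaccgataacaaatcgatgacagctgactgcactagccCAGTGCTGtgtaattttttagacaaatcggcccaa
ATPsynD: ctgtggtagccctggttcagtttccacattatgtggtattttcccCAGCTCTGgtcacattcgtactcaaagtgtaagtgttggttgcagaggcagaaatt
COX7A: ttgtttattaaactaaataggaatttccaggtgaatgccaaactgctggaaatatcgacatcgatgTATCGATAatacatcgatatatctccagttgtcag
COX7AL: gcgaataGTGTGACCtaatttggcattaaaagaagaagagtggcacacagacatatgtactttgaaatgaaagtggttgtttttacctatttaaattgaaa
ND-SGDH: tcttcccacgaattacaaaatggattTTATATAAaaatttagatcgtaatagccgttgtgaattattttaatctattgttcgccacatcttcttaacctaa
ND-MNLL: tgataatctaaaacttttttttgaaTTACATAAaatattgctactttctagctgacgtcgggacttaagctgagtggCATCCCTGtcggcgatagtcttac
ND-13B carries the Ohler motif 7 word at 2 places in its window, 1 of them across the summit.

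Of the 87 members, 32 were bound (36.8%, exact 95% interval 26.7% to 47.8%), against 29.0% of all protein-coding genes. The interval holds the value of all genes, so the module as a whole was close to the background. In the pooled relaxed list 42 members (48.3%) had an entry at the promoter, against 45.9% of all genes. Each replicate list was also cut to its 8551 entries of highest signal, the length of the optimal list (top list). Members with a promoter summit in the top list numbered 34, 34 and 28 in replicates 1, 2 and 3, which is 39.1%, 39.1% and 32.2%, against 31.0%, 29.5% and 29.6% of all genes. The mean was 36.8% ± 3.98 for members and 30.0% ± 0.836 for all genes (SD, n = 3), and members were above all genes in each replicate. Bound members had a median signal of 258, against 279 for all bound genes. For scale, 35 of 73 mitochondrial ribosomal protein genes (47.9%) and 76 of 92 cytoplasmic ribosomal protein genes (82.6%) were bound.

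The module split by gene name. Among main subunit genes 30 of 63 were bound (47.6%, exact 95% interval 34.9% to 60.6%), and among copies 2 of 24 (8.33%, 1.03% to 27.0%), against 29.0% of all genes. The counts in the replicate top lists were 32, 32 and 26 main subunit genes and 2, 2 and 2 copies. Without an entry at the promoter in any list were 10 main subunit genes (15.9%) and 20 copies (83.3%), against 40.1% of all genes. Both bound copies belong to complex IV, COX7AL and COX7AL2. COX7AL stands beside COX7A on 3R with a summit of its own, at 8343551 against 8341061 for COX7A. The copies COX7CL and COX5BL were not bound, and the nearest optimal summits were those of COX7C and COX5B, their neighbours, at 1762 and 1884 bp. Gene arrangement moved with this split: 36 of 63 main subunit genes (57.1%) and 3 of 24 copies (12.5%) had a divergent neighbour, a gene on the other strand that starts within 500 bp upstream. Its part in the difference was not tested.

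**Figure D1:**
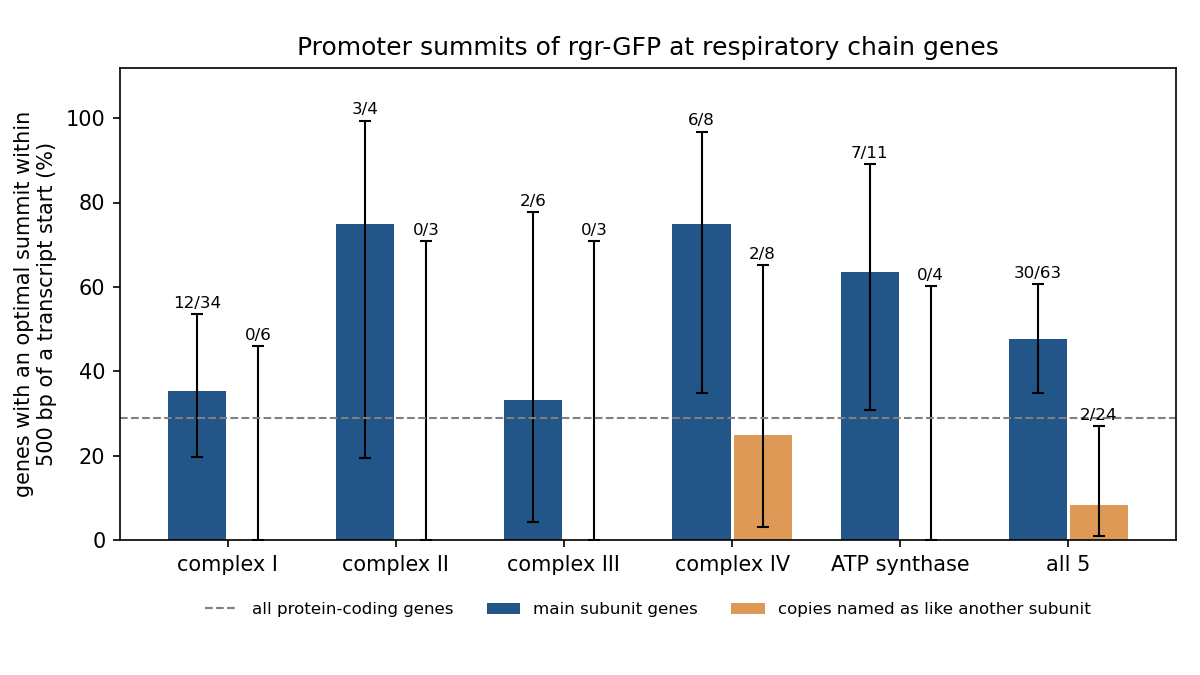
Share of genes with an optimal rgr-GFP summit within 500 bp of a transcript start (%), for main subunit genes (blue) and copies named as like another subunit (orange) in each complex, with exact 95% binomial intervals and counts above them. The dashed line marks all protein-coding genes (29.0%); main subunit genes of complexes II and IV reach 75.0%, and copies were bound in complex IV only (2 of 8).

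By complex, the bound share of all members was 30.0% in complex I (12 of 40), 42.9% in complex II (3 of 7), 22.2% in complex III (2 of 9), 50% in complex IV (8 of 16) and 46.7% in the ATP synthase (7 of 15). The exact 95% intervals were 16.6% to 46.5%, 9.90% to 81.6%, 2.81% to 60.0%, 24.7% to 75.3% and 21.3% to 73.4% in the same order. All of them hold the 29.0% of all genes and overlap each other. Among main subunit genes alone the counts were 12 of 34, 3 of 4, 2 of 6, 6 of 8 and 7 of 11. Their intervals were 19.7% to 53.5%, 19.4% to 99.4%, 4.33% to 77.7%, 34.9% to 96.8% and 30.8% to 89.1%. The first 3 hold the 29.0% of all genes, the last pair do not, and all overlap each other. The ATP synthase count of 7 rested on low peaks: 2 of its 7 peaks were among the 4275 optimal peaks of highest signal, and the count was 4, 3 and 5 without replicates 1, 2 and 3, keeping a peak only where both of the others had it in their top list.

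Complex I had the highest peaks of the module. With 40 of the 87 members it also had the largest number without a peak, at a bound share (30.0%) close to the 29.0% of all genes. Its core subunits carry the flavin and iron-sulfur centres that take electrons from NADH, and 3 of the 7 encoded in the nucleus were bound (exact 95% interval 9.90% to 81.6%, against 29.0% of all genes). ND-24, one of the iron-sulfur subunits of the NADH-oxidising part, had a signal of 511 and ranked 1216, 1287 and 1989 in replicates 1, 2 and 3. ND-51, which holds the flavin, had a signal of 447 and ranked 1106, 2529 and 1457. ND-23, an iron-sulfur subunit, had a signal of 170, ranked 6557 and 6681 in replicates 2 and 3, and lacked a summit within 100 bp in replicate 1, whose nearest lay 146 bp away at rank 6196. The first pair thus stood high in each replicate and ND-23 low. Each of the 3 summits also lies near the start of another gene: corolla for ND-24, CG13994 for ND-51 and spn-E for ND-23. These peaks cannot be given to the core gene alone.

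The other 4 core subunits were not bound. ND-49 and ND-30 had no entry at the promoter in any list. ND-20 had an entry in the pooled relaxed list at rank 13725, below the threshold, and ND-75, the largest core subunit, an entry at rank 22009 of replicate 1. The nearest optimal summit to ND-75 lay 788 bp away, at the start of CG1632, with a signal of 300. Core subunits of the same electron path were thus found both with and without a peak.

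Of the 27 accessory main subunit genes of complex I, which surround and stabilise the core, 9 were bound (33.3%, exact 95% interval 16.5% to 54.0%), close to the 29.0% of all genes. ND-ASHI had the highest signal of all members, 1015, and ranked 301, 308 and 252. Its summit lay 251 bp upstream, between ND-ASHI and Fum1, which encodes the fumarase of the citrate cycle. A second, lower summit (signal 192) lay within ND-ASHI, 27 bp past a transcript start inside the gene. ND-MWFE followed with a signal of 597 and ranks of 927, 1089 and 935, at 2R:13158505, where TppII begins on the other strand. ND-42 had a signal of 533 and ranked 1660, 1041 and 1715, and shares its summit with Cchl, which encodes an enzyme that attaches haem to cytochrome c. These peaks were high in every replicate.

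The other bound accessory genes had lower peaks. ND-B22 had a signal of 368 and ranked 1975, 2261 and 2440, with no other protein-coding start near its summit. ND-SGDH had a signal of 359 and ranked 2102 and 2385 in replicates 2 and 3; in replicate 1 the nearest summit lay 104 bp away at rank 2330, just past the 100 bp used for matching. ND-MNLL had a signal of 325 and ranked 2490, 2749 and 3640. All of these stayed in the top list of the replicates in which they were found. ND-13B, ND-B18 and ND-B8 had signals of 231, 202 and 143. ND-B8 was the weakest bound member, and its ranks of 9259, 6813 and 9136 put it past the top list in replicates 1 and 3.

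In complex II, which oxidises succinate in the citrate cycle and feeds the electrons to the chain, 3 of the 4 main subunit genes were bound. SdhA, the flavoprotein that binds succinate, had a signal of 356 and ranked 2655, 2143 and 2398, with its summit 68 bp upstream of the start on 2R. SdhC, a membrane anchor, had a signal of 252 and ranked 7099, 3064 and 3193, from a summit 348 bp upstream that it shares with Tctp. SdhD, the other anchor, had a signal of 230 and ranked 3751, 3606 and 10072. SdhA was even between replicates, while SdhC was lower in replicate 1 and SdhD in replicate 3. SdhB, the iron-sulfur subunit, had only relaxed entries, at rank 10693 in the pooled list and 14096, 9366 and 11656 in the replicates. The copies SdhAL, SdhBL and SdhCL had no entry in any list.

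In complex III, the cytochrome bc1 complex, UQCR-C2 and UQCR-14 were bound. UQCR-C2, a large core protein of the matrix side, had a signal of 280 and ranked 4510, 3367 and 2455. Its summit lay 49 bp upstream of the nearest of its 2 starts, inside the 5′ UTR of the gene. UQCR-14, a small subunit, had a signal of 257 and ranked 3583, 3650 and 7262, with its summit 12 bp inside the transcript. Neither summit lies near the start of another protein-coding gene. UQCR-C1, UQCR-Q and the copy UQCR-6.4L had entries in the pooled relaxed list below the threshold, at ranks 11332, 18734 and 21859. UQCR-6.4 had a top-list summit in replicate 1, at rank 7995, and an entry at rank 17167 in replicate 3. UQCR-11 and UQCR-11L had replicate entries no higher than rank 15846, and UQCR-14L had none.

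Complex IV, cytochrome c oxidase, reduces oxygen, and its nuclear subunits surround a core encoded in mitochondrial DNA. COX6B, on the side facing the intermembrane space, had a signal of 418 and ranked 1817, 1652 and 2143. COX7B had a signal of 392 and ranked 1543, 2448 and 2096. COX5B, a zinc-binding subunit in mammals, had a signal of 380 and ranked 1783, 2244 and 2453. With COX5A, at a signal of 360 and ranks of 2833, 2108 and 2182, these formed a group of similar height in all replicates. Each of the 4 summits also lies near the start of another gene: CG33932, Rpp20 and CG18809 for COX6B, Sec3 for COX7B, IFT52 for COX5B and glo for COX5A.

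The peaks at the COX7A and COX7C genes were lower. COX7AL had a signal of 259 and ranked 3701, 4169 and 2998. COX7AL2 had a signal of 230 and ranked 5436, 3768 and 5893, with its summit 335 bp inside the gene, and 3 more optimal summits within the gene (signals 282, 206 and 175) lay more than 500 bp from its starts. COX7C had a signal of 177 and ranked 7824, 5791 and 3612, and COX7A had a signal of 162 and ranked 6828, 6263 and 9567. The copy COX7AL thus had the higher signal beside COX7A in the pooled calls and ranked above it in each replicate. COX8 was not bound although it had top-list summits at rank 3832 in replicate 1 and 2787 in replicate 3. Replicate 2 had none there, and the nearest pooled entry lay 15921 bp away. COX4 had an entry in replicate 3 alone, at rank 17081.

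The ATP synthase peaks were low, and 3 of the 5 bound members that lacked a matching summit in a replicate were among them. ATPsynE, a small membrane subunit, had the highest signal, 327, and ranked 2361, 2596 and 5159. ATPsynCF6, part of the outer stalk, had a signal of 231 and ranked 6123, 5564 and 4168, and ATPsyngamma, the rotating central shaft, a signal of 191 and ranks of 5065, 5586 and 5415. ATPsynC, which forms the rotor ring, had a signal of 172 and ranked 4682 and 11506 in replicates 1 and 2, and replicate 3 had its nearest summit 113 bp away at rank 8172. Taking any summit within 500 bp of a start instead, ATPsynC ranked 4682, 4896 and 7947, so all of these genes had a top-list summit at the promoter in every replicate, and the gap at ATPsynC concerned the position of the summit.

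ATPsynD, of the outer stalk, had a signal of 166 and ranked 4731, 6638 and 24046. Its ranks differed by 5.08 times, the widest spread among members found in all replicates. ATPsynF, a membrane subunit, had a signal of 155 and ranked 6876 and 8145 in replicates 2 and 3, with no entry within 5000 bp in replicate 1. ATPsynbeta, the catalytic subunit, had a signal of 152 and ranked 7828 and 6521 in replicates 1 and 2, with the nearest entry of replicate 3 at 1681 bp. Its summit lay 488 bp upstream, close to the 500 bp limit and nearer to CG11076. ATPsynG was below the threshold (pooled rank 12450), ATPsynO and ATPsyndelta had an entry in replicate 1 only, and ATPsynB and the 4 copies had none. The alpha subunit, which forms the head together with beta, goes by the symbol blw and is described with the related genes.

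**Figure D2:**
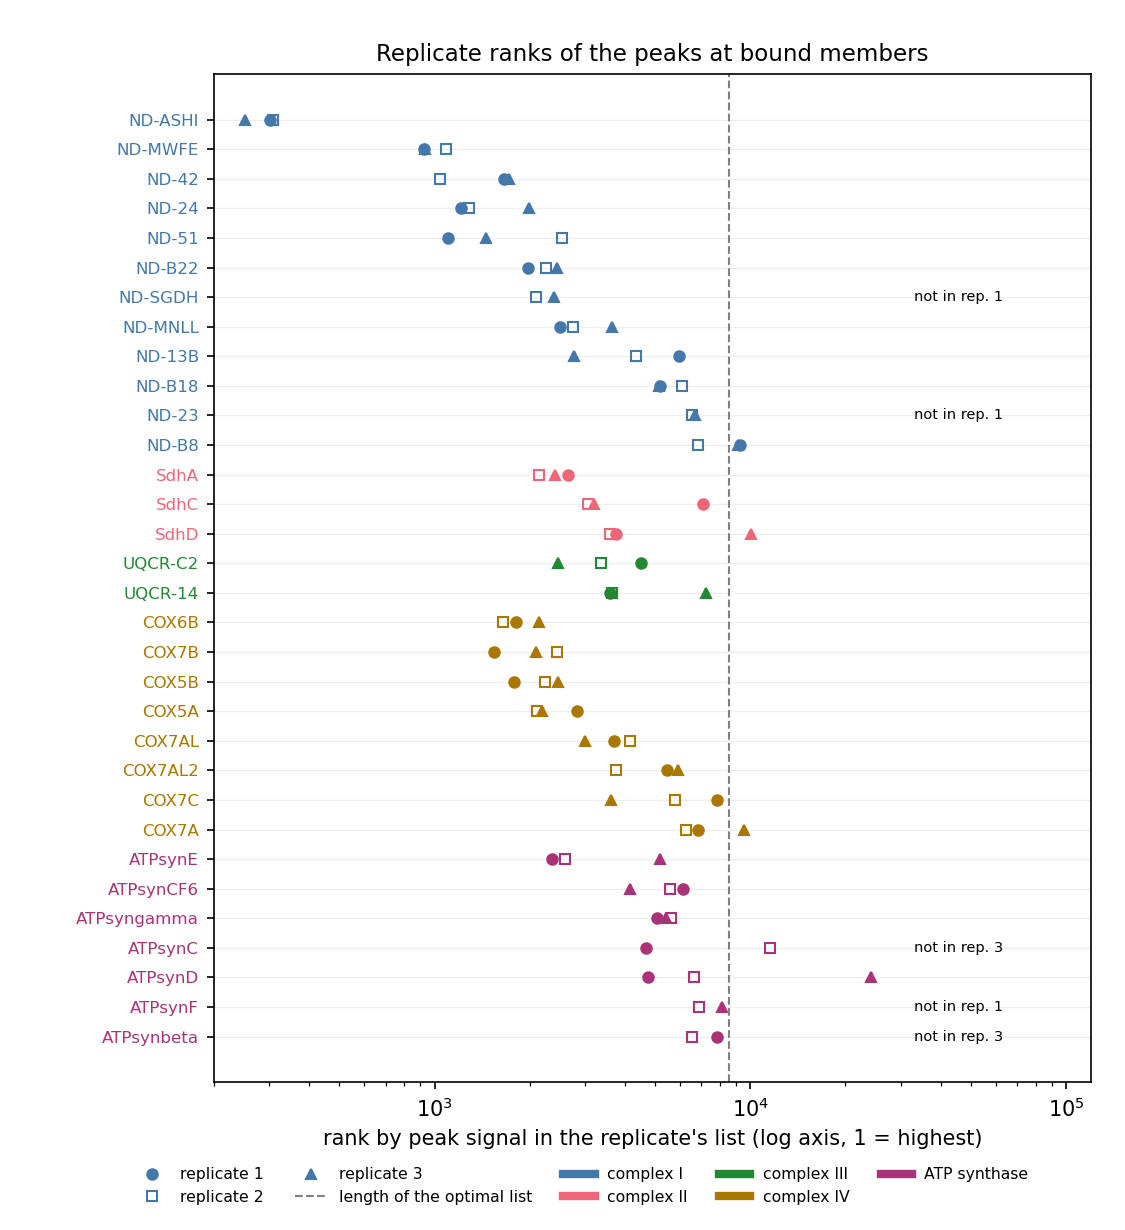
Rank by peak signal (log axis, 1 is the highest) of the summit within 100 bp of each bound member's optimal summit in replicate 1 (filled circle), 2 (open square) and 3 (triangle), coloured by complex and ordered by the pooled signal. The dashed line marks rank 8551, the length of the optimal list; ND-ASHI stands apart at 252 to 308, and ATPsynD reaches 24046 in replicate 3.

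Most bound members with a matching summit in all replicates had ranks within 2 times of each other. A matching summit was found for 29, 32 and 30 of the 32 in replicates 1, 2 and 3, at median ranks of 3701, 3486 and 3096. All replicates had one for 27 members (84.4%), against 90.3% of all bound genes, and 23 (71.9%) were in all top lists, against 72.6%. Among the 27, the highest and lowest rank differed by at most 2 times for 19 and by more for 8, with a median of 1.53 times. Spearman's rho between replicates, over members that share the pooled calls they were taken from, was 0.846 for replicates 1 and 2 (n = 29), 0.755 for 1 and 3 (n = 27) and 0.859 for 2 and 3 (n = 30). Summits farther than the 100 bp allowed account for ND-SGDH, ND-23 and ATPsynC, and for ATPsynF and ATPsynbeta the replicate lacked a nearby entry.

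Most member summits lay just upstream of a transcript start of the member. In genes with several starts that start can lie inside the gene. The summits of ND-B18, ND-B22, UQCR-C2, COX5A and ATPsyngamma were upstream of their nearest start but within the gene. The strongest promoter summit of 27 of the 32 (84.4%) was upstream of the nearest start of the member, against 81.1% of bound genes. Between 0 and 150 bp upstream lay 22 (68.8%), against 45.8%. The median distance was 85.0 bp for members and 117 bp for all bound genes, and 18 members (56.2%) were within 100 bp, against 44.0%. At the far end, ATPsynbeta (488 bp), SdhC (348 bp) and COX7AL2 (335 bp) were the last inside the 500 bp limit. The first outside were ND-15, with a summit at 763 bp that marks the start of CG3436 (signal 216), and ND-75 at 788 bp.

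**Figure D3:**
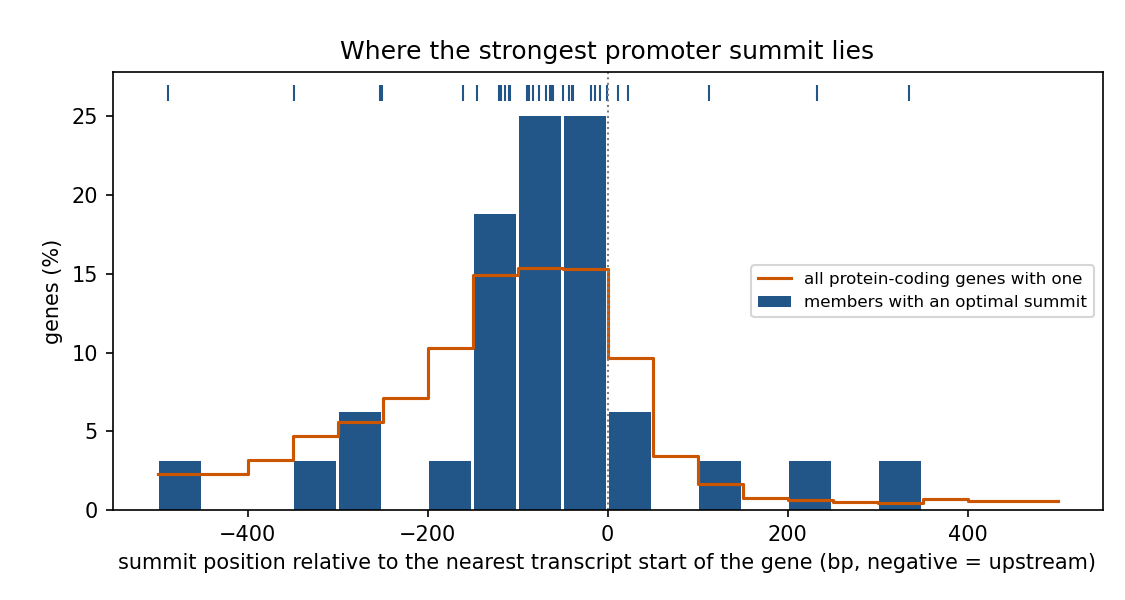
Position of the strongest optimal summit relative to the nearest transcript start of the gene (bp, negative is upstream) in bins of 50 bp, as the share of the 32 bound members (blue bars, with a tick for each member above) and of the 4048 bound protein-coding genes (orange line). Both bins within 100 bp upstream hold 25% of members, against 15.4% and 15.3% of bound genes.

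Member promoters were often shared with another gene. The summits of 24 of the 32 bound members (75.0%) lay within 500 bp of a start of another protein-coding gene, against 51.3% of bound genes. A divergent neighbour was annotated for 39 members (44.8%), against 27.4% of all genes. Of these 39 members 23 were bound (59.0%, exact 95% interval 42.1% to 74.4%), against 51.9% of all genes with such a neighbour. Of the 48 without one, 9 were bound (18.8%, 8.95% to 32.6%), against 20.4% of all genes without. Both shares were near those of genes with the same arrangement. Among main subunit genes the shares were 61.1% with a divergent neighbour (22 of 36) and 29.6% without (8 of 27). A summit between 2 starts cannot be given to either gene. The 8 bound members with no other protein-coding start near the summit were ND-13B, ND-B22, SdhA, SdhD, UQCR-C2, UQCR-14, COX7AL2 and ATPsynC, with signals between 172 and 368.

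Some of the neighbours serve other functions, and others are mitochondrial genes too. ND-23 lies across from spn-E, an RNA helicase of the piRNA pathway, ATPsynCF6 from Sec13, a coat protein of secretory vesicles, and COX7A from Arl2, a small GTPase. ATPsynD lies across from mRpL55, a protein of the mitochondrial ribosome, ND-ASHI from Fum1 and ND-42 from Cchl. These summits stand between pairs of mitochondrial genes. A divergent neighbour was not enough for a call: 16 of the 39 were not bound, among them ND-49 beside Ephrin, ND-30 beside CG15812 and ND-PDSW beside msl-2. The number of annotated starts moved with binding as well. Members with 1 start were bound in 25% of cases (13 of 52), against 22.1% of all genes with 1 start. Members with several were bound in 54.3% (19 of 35), against 48.3%.

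**Figure D4:**
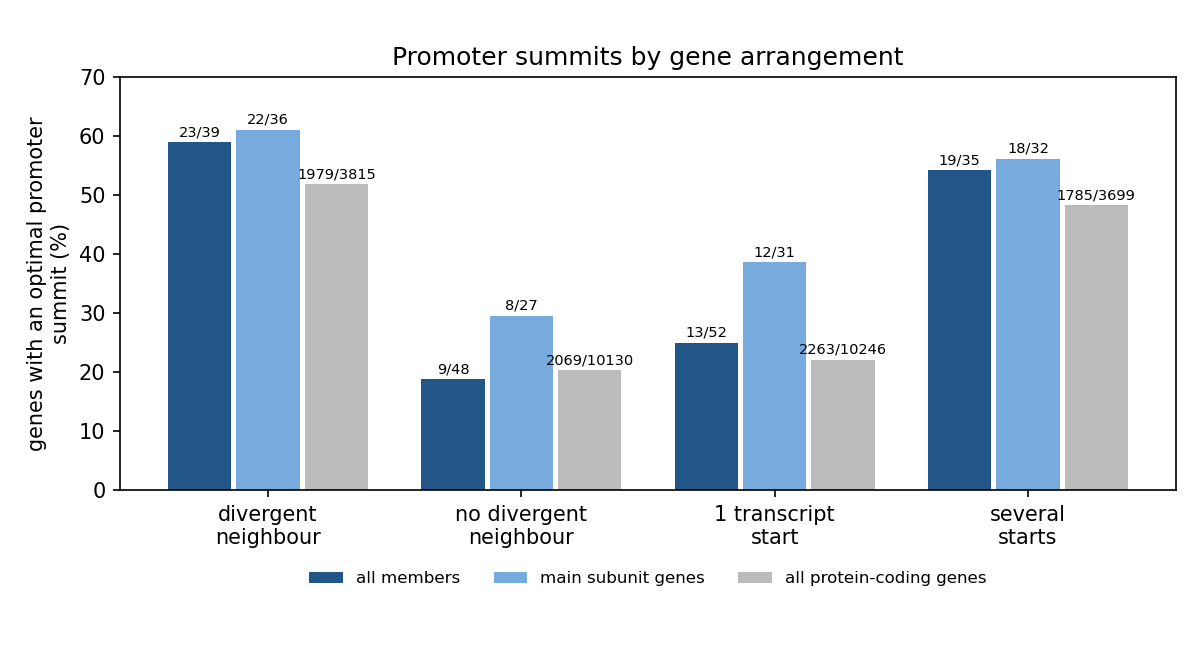
Share of genes with an optimal promoter summit (%) among all members (dark blue), main subunit genes (light blue) and all protein-coding genes (grey), by whether a divergent neighbour starts within 500 bp upstream and by the number of annotated transcript starts, with counts above the bars. Members with a divergent neighbour stand at 59.0% beside 51.9% of all such genes, and those without at 18.8% beside 20.4%.

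Bound members were not spread evenly over the chromosomes. On 3R 12 of 19 members were bound (63.2%, exact 95% interval 38.4% to 83.7%), against 29.5% of all genes on that arm. The shares on the other arms were 5 of 16 on 2L (31.2%, against 26.9%), 4 of 17 on 2R (23.5%, against 29.4%), 4 of 20 on 3L (20%, against 30.6%), 6 of 13 on X (46.2%, against 28.9%) and 1 of 2 on chromosome 4 (50%, against 17.5%). The members of 3R included a divergent neighbour in 12 of 19 cases (63.2%), against 29.1% of all genes on the arm. These were 6 counts read after the fact, with no test of their difference.

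Among the 55 members that were not bound, 10 had an entry in the pooled relaxed list, 15 had entries in replicate lists only and 30 had none. The 10 main subunit genes with none were ND-PDSW, ND-B15, ND-B14.7, ND-B12, ND-19, ND-30, ND-49, ND-AGGG, ND-18 and ATPsynB, 9 of them in complex I. Complex I holds 34 of the 63 main subunit genes, and these 9 are 26.5% of its 34, against 40.1% of all genes without an entry. The lowest signal of a bound member was 143 (ND-B8), and the highest pooled signals below the threshold were 115 at ND-B14.5A and 109 at ND-15. ND-B14.5A ranked 10595, 8219 and 15644 and ND-15 ranked 9627, 6436 and 9332. Top-list summits in replicate 1 without an optimal peak stood at COX8, UQCR-6.4, ND-B17 (rank 6149) and ND-MLRQ (rank 7008). ND-MLRQ had a further entry at rank 11838 in replicate 3, and its nearest pooled entry lay 188606 bp away. Some members held optimal summits far inside the gene: ND-15, a long gene, had 5 in introns with signals from 129 to 334, and ND-39 had intronic summits of 807 and 405, the first at 1505 bp and within 500 bp of a start of ZnT77C.

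Subunits and helpers that the symbols do not catch were read from lists chosen with the members. Of 10 further subunits and electron carriers 6 were bound, against 29.0% of all protein-coding genes. They were blw, the alpha subunit of the ATP synthase head (signal 752, summit 114 bp upstream), the cytochrome c genes Cyt-c-d (848) and Cyt-c-p (151), ox of complex III (295), and levy (220) and cype (160) of complex IV. The Cyt-c-d summit lay 408 bp past the nearest start of the gene, toward the 500 bp limit, and that of Cyt-c-p 9 bp past. The other 4 of the 10 genes, sun, RFeSP, Cyt-c1 and knon, were not bound. The head of the ATP synthase thus had its alpha subunit at 752 and its beta subunit at 152, and the sun gene for epsilon without a peak. Of assembly factor genes 4 of 10 found in the annotation were bound, a count close to that background: CIA30 (1651), which helps build complex I, the copper chaperone Cox17 (380), Sirup (202), which acts on complex II, and Coa7 (127). Scox, Surf1, Cox10, Cox11, Ccdc56 and Sdhaf3 were not.

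Of 11 genes for upkeep of mitochondrial DNA and for nuclear regulators 3 were bound (27.3%, against 29.0% of all genes). These were mtSSB (754), the single-strand binding protein, PolrMT (165), the mitochondrial RNA polymerase, and mtDNA-helicase (123). The regulator genes ewg, Ets97D and srl, fly relatives of the mammalian factors NRF-1, NRF-2 and PGC-1, were not bound, nor were TFAM, mtTFB1, mtTFB2, PolG1 and PolG2. The citrate cycle, which supplies the chain, had 8 of 11 bound (72.7%). Idh3g, a subunit of isocitrate dehydrogenase, had a signal of 1187, Fum1 shared its summit of 1015 with ND-ASHI, and mAcon1, an aconitase, had 495. Idh3b (350), Ogdh (181), ScsbetaA (178), kdn (141), the citrate synthase gene, and Scsalpha1 (128) followed. Idh3a, ScsbetaG and Mdh2 were not bound. The replicate top lists held 9, 8 and 8 of the citrate cycle genes. These lists are short, and no test was made of their counts.

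The sequence under the peaks was searched on both strands for 10 words. They were the DRE (TATCGATA), bound by DREF, the M1BP word (GGTCACAC), Ohler motif 6 (GTATATTT or GTATTTTT), Ohler motif 7 (CAGCNCTG or CAGCNCTA, and CATCNCTG or CATCNCTA), the nuclear respiratory gene element described in fly energy genes (TTATATAA or TTACATAA, and TTATGTAA or TTACGTAA), the E-box (CACGTG), the TATA box (TATAAA), the GAGA word (GAGAGAG), the ETS core (CCGGAA) and a word of the NRF-1 type (GCGCATGC). The respiratory gene element and the TATA box can share bases, as at ND-SGDH. Members had 33 optimal promoter summits, since ND-ASHI has 2, and all protein-coding genes 3651.

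Ohler motif 7 stood out by count. It lay within 50 bp of 10 of the 33 member summits (30.3%), against 10.5% of all promoter summits, and within 100 bp of 15 (45.5%, against 19.3%). The sites were at ND-13B, ND-B18, ND-MNLL and ND-MWFE in complex I, SdhD in complex II, COX6B and COX7C in complex IV, and ATPsynD, ATPsynF and ATPsynbeta in the ATP synthase. Signals at these summits ran from 152 to 597. The DRE was at 3 summits (9.09%, against 4.19%), the M1BP word at 2 (6.06%, against 3.10%), the respiratory gene element at 2 (6.06%, against 1.86%), Ohler motif 6 at 1 (3.03%, against 4.46%) and the TATA box at 7 (21.2%, against 16.7%). The E-box, the GAGA word, the ETS core and the NRF-1 word were at none, against 1.07%, 2.30%, 2.30% and 0.219% of all promoter summits. With so few windows, each share below 10% rests on 3 windows or fewer. Member windows were 62.4% A or T at the median (46.5% to 85.1%), against 61.4%.

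The promoters of all 87 members, taken from 250 bp before to 50 bp after the gene start, were searched for the same words. Ohler motif 7 was in 24 of them (27.6%), against 19.1% of all promoters, and the M1BP word in 16 (18.4%, against 7.71%). All 24 promoters with Ohler motif 7 and 15 of the 16 with the M1BP word belonged to main subunit genes (38.1% and 23.8% of 63), and the remaining M1BP word was at COX7AL. The DRE and the respiratory gene element were in 0 of 24 copies, against 9.37% and 5.18% of all promoters, and Ohler motif 6 was in 2 (8.33%, against 12.5%), counts too small to set copies apart from other genes. Among main subunit genes without a peak, 10 of 33 had Ohler motif 7 (30.3%) and 9 of 33 the M1BP word (27.3%). The shares of all promoters without an optimal summit were 14.9% and 6.11%. Among bound members 14 of 32 had Ohler motif 7 (43.8%), against 29.3% of all bound genes. ND-30, ND-19, ND-B12 and COX8 are examples with the word and no peak. The TATA box was in 48 member promoters (55.2%, against 45.9%), in a window whose A and T content was 65.8% at the median for members and 62.1% for all genes. In the shorter window from 100 bp before to 50 bp after the start it was in 20 (23.0%, against 24.1%), so the side of all promoters on which members stood depended on the window. The DRE turned likewise, with 9 members (10.3%, against 9.37%) in the longer window and 4 (4.60%, against 7.64%) in the shorter.

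**Figure D5:**
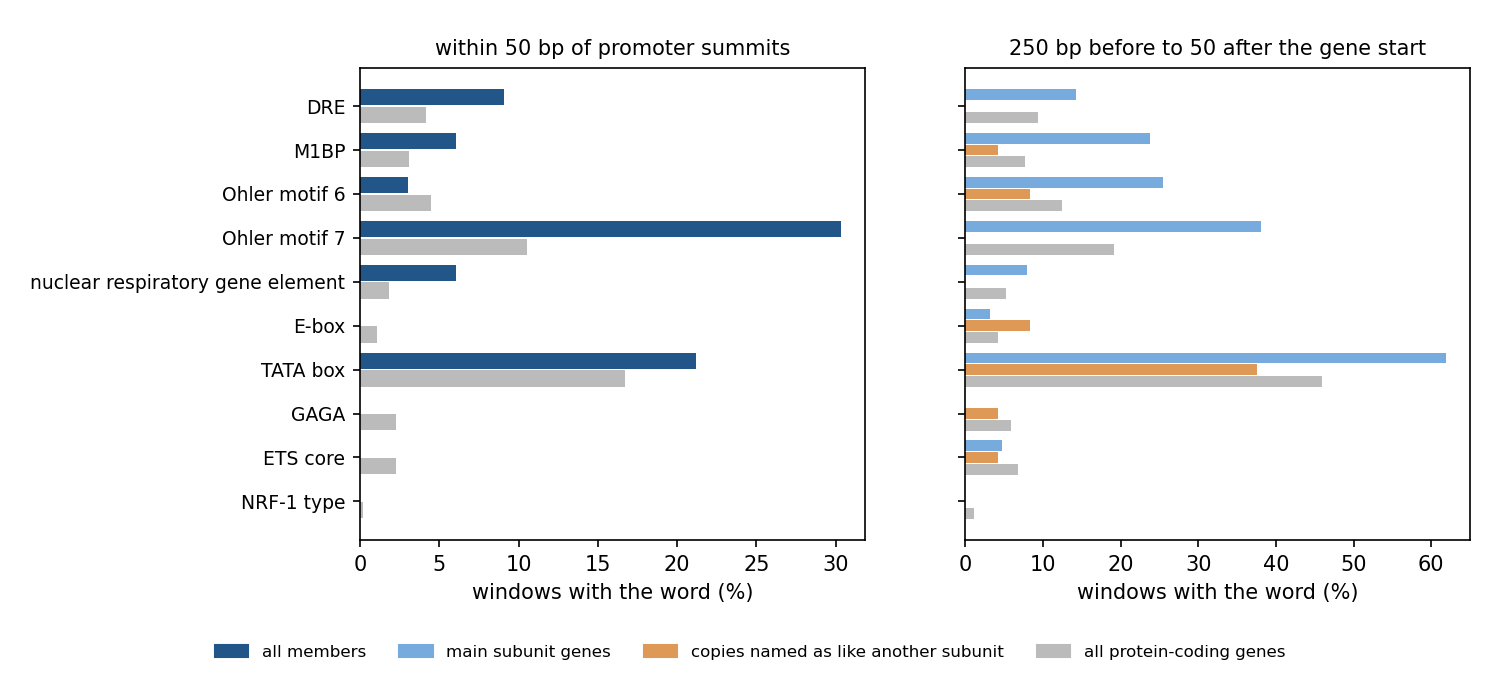
Share of windows that hold each of the 10 words on either strand (%), within 50 bp of promoter summits (left; 33 member summits in dark blue, 3651 of all protein-coding genes in grey) and in promoters from 250 bp before to 50 bp after the gene start (right; 63 main subunit genes in light blue, 24 copies in orange, all protein-coding genes in grey). Ohler motif 7 reaches 30.3% of member summits beside 10.5%, and no copy holds it.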

How the data were processed

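Chromatin immunoprecipitation and sequencing of GFP-tagged rgr was done by the authors on sonicated chromatin of 3 biological replicates (1 group), per the labels. The analysis began from the deposited dm6 peak lists. Per the file listing, the authors made a relaxed list per replicate and a pooled one against a control alignment, and filtered them to the optimal list by irreproducible discovery rate. Aligner, caller and threshold were not given in the sources used here, nor is it stated how the peak signal the authors deposited was scaled, so levels were compared within 1 list only. Lists on dm3 were not used. No per-sample column was left unmapped.

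Genes with their transcript starts were those of Ensembl (release 115, BDGP6.54) on arms 2L, 2R, 3L, 3R, 4 and X, and sequence from RefSeq. Summits (start plus offset, given 1-based) within 500 bp of any start were counted for every gene there, so a summit between genes counted for both. Replicate summits were matched within 100 bp of the optimal summit, and the nearest was taken. Shares have exact (Clopper-Pearson) 95% intervals, which cover counting error only and treat genes as independent. No p-value was computed, because there is 1 group, and SDs over replicates may include technical spread. The members, lists and words were chosen with earlier results of these data known. Genes named are all bound members of a complex with 8 or fewer, the 8 of highest signal in complex I, those missing in a replicate or with ranks over 10 times apart, the core subunits of complex I, SdhA to SdhD and ATPsynbeta; others were named after their values were seen. ND-MNLL ends in L but is not a copy and was counted with the main subunit genes. Printed sequences leave out 1 arm. Alternatives were other distances, only the 4275 peaks of highest signal, other list lengths, gene starts only, other definitions of copies and leaving out each replicate; those for copies were chosen after seeing the data. The functions were tested on simulated data. Python 3.11.15, numpy 2.4.6, scipy 1.17.1 and matplotlib 3.10.9 were used.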

Additional observations from a re-analysis of the deposited data

How the results depend on the processing

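The count of 32 bound members was 28 within 250 bp and 34 within 1000 bp of a start, 22 among the 4275 optimal peaks of highest signal, 42 by pooled relaxed entries and 23 to 27 when a replicate was left out, within 1.5 times throughout. Leaving out a replicate kept only optimal peaks in the top lists of both others, which lowers every count: the members' shares without replicates 1, 2 and 3 were 29.9%, 26.4% and 31.0%, against 22.9%, 22.5% and 24.2% of all genes. The ATP synthase count of 7 was 2 among the 4275 peaks of highest signal and 3 to 5 without a replicate. The mean of 32 members with a top-list summit was 19.3 with lists cut to 4275 entries and 47 with whole relaxed lists, shorter and longer lists by construction, and 31 to 34 without a replicate. The 27 members matched in all replicates were 24 within 50 bp and 30 within 200 bp. Of copies 1 was bound within 250 bp and 2 under the other alternatives. Among word shares, 9 of 10 at summits and 6 of 10 in promoters moved by less than their interval in the other window. The TATA box moved to 45.5% within 100 bp of summits (31.9% of all), and in the shorter promoter window the TATA box moved to 23.0%, the DRE to 4.60%, the E-box to 1.15% and GAGA to 0%, against 24.1%, 7.64%, 2.43% and 3.28% of all promoters; for the first 3, members were above all promoters in the longer window. Unknown depth limits what an absent entry shows, since a relaxed list ends at 30000 entries.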
